A study of Rattus norvegicus with 11 samples.

Results

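The genes described here are the endothelial and leukocyte adhesion molecules Sele, Selp, Icam1, Icam2, Vcam1, Pecam1, Selplg and Itgb2, measured in whole rat lung on 1-colour microarrays. The members were all probe sets whose annotated symbol was exactly one of these 8 names. Of the 31042 probe sets tested, which name 14217 genes, 9 met that rule and they covered 7 of the 8 genes. Selp and Icam2 had 2 probe sets each, and no probe set carried the name Selplg, so the gene for P-selectin glycoprotein ligand 1 was not analysed here.

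All rats were of the Dahl salt-sensitive strain, and lung RNA was taken at 3.5 weeks after the pulmonary vessels had been perfused. The 3 groups were hypoxia with SU5416 (3 arrays), in which rats breathed an oxygen fraction of about 9.5% and received SU5416, an inhibitor of VEGF receptor kinases; hypoxia alone (4 arrays), with the same oxygen fraction and vehicle; and normoxia (4 arrays), with room air and vehicle. No group given SU5416 in room air was analysed here, so the comparison of hypoxia with SU5416 against hypoxia is the one in which only the compound differs. The labels give neither the age of the rats nor whether each array came from a separate animal, and p-values therefore measure only the spread between these arrays. A further group that also received sorafenib was not analysed here.

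Leukocytes leave the blood in steps that these proteins carry out. Selectins on activated endothelium (E-selectin, encoded by Sele, and P-selectin, encoded by Selp) catch passing cells and let them roll. ICAM-1, ICAM-2 and VCAM-1 are immunoglobulin-family proteins that bind leukocyte integrins and hold the cell in place, and PECAM-1 sits at endothelial junctions through which cells cross. Itgb2 encodes the beta 2 integrin chain of leukocytes, which pairs with an alpha chain to bind the ICAMs. Sele and Vcam1 are typically low at rest and are induced by inflammatory cytokines through NF-kB, whereas Icam2 and Pecam1 are constitutive endothelial genes.

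The start regions of the 3 members with a RefSeq entry (GRCr8) are shown because the inducible members of this family share NF-kB-type elements. Each window runs from 250 bases before to 50 bases after the annotated start, is 300 bases long, and is written 5′ to 3′ on the strand of the gene. Sele lies at chr13:78936264-78936563 on the plus strand, Icam1 at chr8:27829595-27829894 on the plus strand and Vcam1 at chr2:206742734-206743033 on the minus strand. Capitals mark matches to GGNNNTTCC (the core of NF-kB sites), TATAAA (the TATA box), ACGTG and GCGTG (cores of hypoxia response elements), searched on both strands.
Sele: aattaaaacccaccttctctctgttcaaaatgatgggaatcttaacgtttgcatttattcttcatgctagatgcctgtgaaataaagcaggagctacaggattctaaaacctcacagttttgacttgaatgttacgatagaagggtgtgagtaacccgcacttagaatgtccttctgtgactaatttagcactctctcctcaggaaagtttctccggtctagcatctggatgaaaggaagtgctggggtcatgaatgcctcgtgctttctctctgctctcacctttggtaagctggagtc
Icam1: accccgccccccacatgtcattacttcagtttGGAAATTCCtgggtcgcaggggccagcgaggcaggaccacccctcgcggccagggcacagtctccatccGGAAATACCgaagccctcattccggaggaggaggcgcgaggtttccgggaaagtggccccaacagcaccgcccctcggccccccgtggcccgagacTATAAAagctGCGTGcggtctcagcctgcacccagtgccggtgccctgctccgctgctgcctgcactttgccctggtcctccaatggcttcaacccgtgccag
Vcam1: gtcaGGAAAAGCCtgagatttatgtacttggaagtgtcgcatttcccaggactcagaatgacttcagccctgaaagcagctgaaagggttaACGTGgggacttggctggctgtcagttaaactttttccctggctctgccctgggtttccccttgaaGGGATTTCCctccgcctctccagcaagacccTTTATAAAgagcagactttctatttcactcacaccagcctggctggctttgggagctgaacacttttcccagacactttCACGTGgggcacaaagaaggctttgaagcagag

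The Icam1 window held GGNNNTTCC at positions -218 to -210, counted from the start and read on both strands, and on the minus strand at -149 to -141. It also held TATAAA at -53 to -48 and GCGTG at -43 to -39. In the Vcam1 window GGNNNTTCC stood on the minus strand at -246 to -238 and on the plus strand at -93 to -85, beside TATAAA at -60 to -55, which overlaps its own reverse complement at -62 to -57. ACGTG stood there at -159 to -155 and, on both strands with overlap, between 17 and 22 bases after the start. The Sele window held no match to these motifs. Its bases after the annotated start open with atg, the letters of a start codon, so the window may not reach the promoter. The absence of matches therefore cannot be read as a lack of such elements in the Sele promoter. Among 33469 rat promoter windows of the same length, 18.3% held GGNNNTTCC, 14.2% TATAAA, 19.3% ACGTG and 29.7% GCGTG. These matches describe letters in the windows, and the motifs were chosen after the sequences had been seen.

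Signals are the deposited log2 values, and differences are given as first group minus second on that scale. A probe set was read as above background when its signal passed 5.72, the level that 95% of the signals of 27 bacterial control probe sets stay under. Depth has no counterpart on arrays, and the number of arrays limits the precision. Differences were fitted with limma over all 31042 probe sets and all 11 arrays, and called at a Benjamini-Hochberg adjusted p below 0.05. Alveolar epithelial markers, the check of the lung label, averaged 12.80 to 12.84 over the arrays with SU5416, 12.72 to 12.88 over those of hypoxia and 12.58 to 13.01 over those of normoxia, and all 10 were measured. Normoxia arrays 1 and 2 stood apart in RNA quality: their 3′ minus 5′ gap between beta-actin control probe sets was 2.24 and 1.33, against 0.51 to 0.87 on the other 9 arrays. Values without these arrays, a setting chosen after seeing the data, are given beside the results of some members. Where a sign turned, they are also given in the last section.

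None of the 9 probe sets was called in any comparison. The background share of calls was 0.0258% of all probe sets for hypoxia with SU5416 against hypoxia, 0.0612% for hypoxia with SU5416 against normoxia and 0.00644% for hypoxia against normoxia. At an unadjusted p below 0.05, limma gave 1 member probe set in hypoxia with SU5416 against hypoxia, which was Sele, and 0 in each of the other comparisons, beside 7.47% of all probe sets there. For the arrays with SU5416 against normoxia that share was 12.4%, and for hypoxia against normoxia 11%. The median difference over the 9 probe sets was 0.09 for hypoxia with SU5416 against hypoxia, 0.03 for hypoxia with SU5416 against normoxia and -0.15 for hypoxia against normoxia. Over all probe sets those medians were 0.01, -0.04 and -0.04. The medians of the members thus lay near 0 in each comparison.

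**Figure D1:**
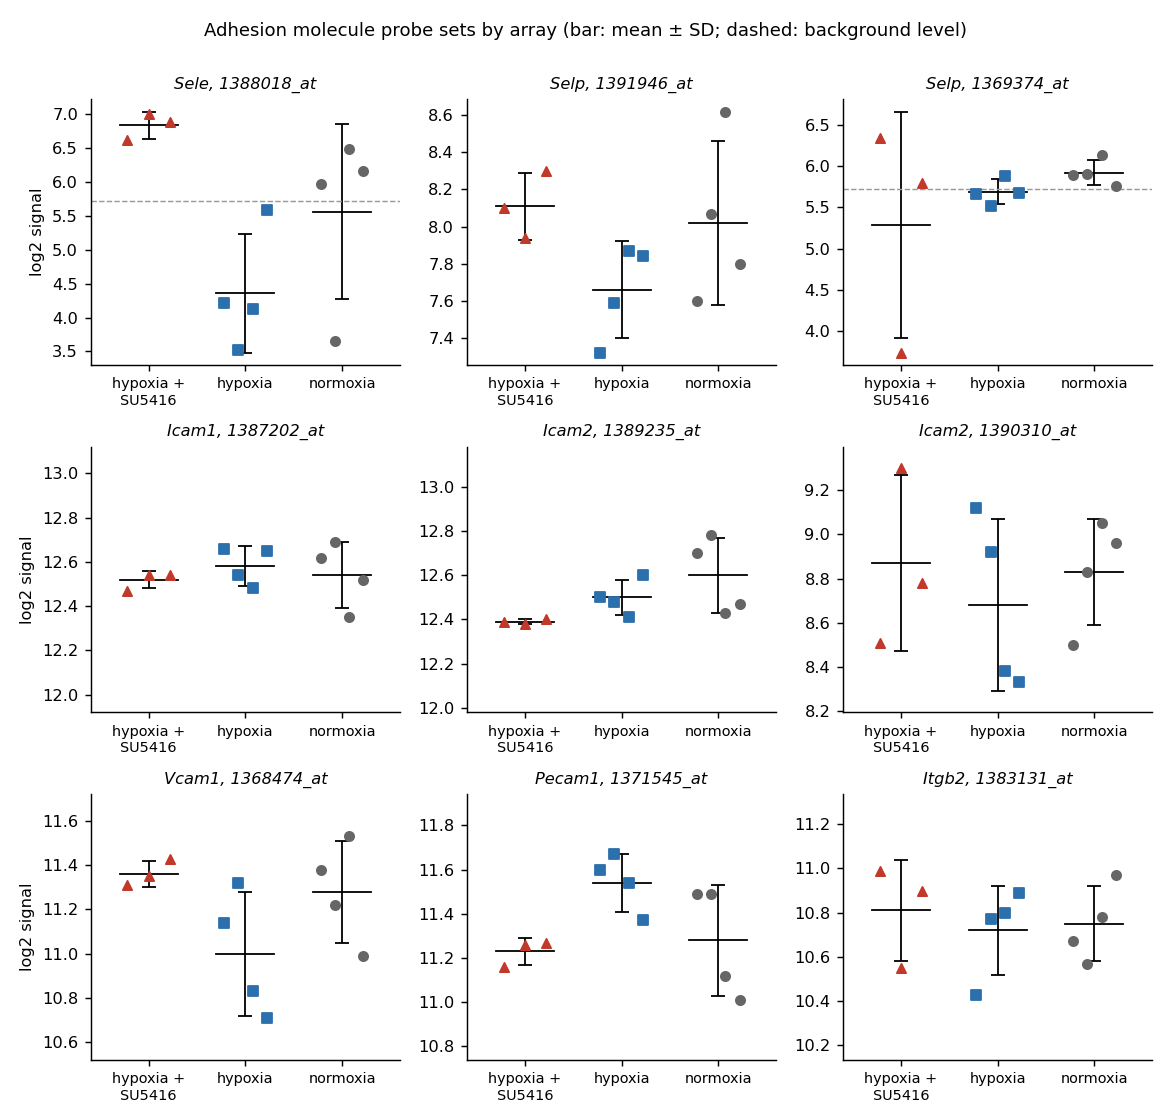
Log2 signal (vertical axes, scaled separately) of the 9 adhesion molecule probe sets on each array of hypoxia with SU5416 (triangles, n = 3), hypoxia (squares, n = 4) and normoxia (circles, n = 4). Bars are group means with SD, and the dashed line is the background level of 5.72; for Sele the 3 arrays with SU5416 lie above the other 8.

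Sele, the endothelial selectin that appears on the cell surface only after activation, had signals of 6.62, 7.01 and 6.88 in hypoxia with SU5416, 4.22, 3.52, 4.12 and 5.59 in hypoxia, and 5.97, 3.66, 6.48 and 6.16 in normoxia. All 3 arrays with SU5416 were above background and above every other array, none of the 4 hypoxia arrays reached background, and 3 of the 4 normoxia arrays did. The group means were 6.84 ± 0.20 (SD, n = 3) with SU5416, 4.36 ± 0.88 (SD, n = 4) in hypoxia and 5.56 ± 1.29 (SD, n = 4) in normoxia. Hypoxia with SU5416 stood 2.48 above hypoxia (SE 0.66, 95% interval 1.0 to 3.95, limma adjusted p = 0.442). Because hypoxia lay below background on every array, the difference of means is also given with hypoxia set to the background level. On that footing the mean of Sele was 2.17-fold higher with SU5416. This fold is a lower bound for the means of these arrays only and includes no sampling error. The adjusted p did not pass the threshold although the arrays did not overlap.

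Arrays of a group scattered more for Sele than for most probe sets of its level: its residual SD was 0.96, where the median of 1325 probe sets of like signal was 0.68, and 82.3% of them had a smaller one.

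Against normoxia, Sele was higher with SU5416 by 1.27 (SE 0.66, 95% interval -0.20 to 2.75, limma adjusted p = 0.468), again with no overlap between arrays. That value depended on normoxia array 2, at 3.66: without it the difference was 0.64, and without normoxia arrays 1 and 2 it was 0.52. Hypoxia against normoxia gave -1.2 (SE 0.61, 95% interval -2.57 to 0.16, adjusted p = 0.504) with overlapping arrays. Without normoxia array 2 it was -1.84, and without arrays 1 and 2 it was -1.96. No fold is given for that pair, since the normoxia mean lay below the background level that bounds hypoxia. Hypoxia with SU5416 arrays exceeded all 8 others at 571 probe sets, 1.84% of all, and Sele was the only member among them.

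Selp encodes P-selectin, which endothelial cells and platelets store in granules and bring to the surface on stimulation. Its probe set 1391946_at had signals of 8.10, 7.94 and 8.30 in hypoxia with SU5416, 7.32, 7.59, 7.87 and 7.84 in hypoxia, and 7.60, 8.07, 8.62 and 7.80 in normoxia. The arrays with SU5416 all lay above those of hypoxia, while normoxia spanned both groups. The means were 8.11 ± 0.18 (SD, n = 3) with SU5416, 7.66 ± 0.26 (SD, n = 4) in hypoxia and 8.02 ± 0.44 (SD, n = 4) in normoxia. Hypoxia with SU5416 minus hypoxia was 0.46 (SE 0.24, 95% interval -0.07 to 0.98, limma adjusted p = 0.732). As a ratio the interval ran from 0.955 to 1.98. The difference from normoxia was 0.09 (95% interval -0.43 to 0.61, adjusted p = 0.910), and hypoxia minus normoxia was -0.37 (95% interval -0.85 to 0.12, adjusted p = 0.564).

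The second Selp probe set, 1369374_at, sat at the background level, with a mean of 5.66 over the 11 arrays. Its signals were 6.34, 3.74 and 5.79 in hypoxia with SU5416, 5.66, 5.52, 5.88 and 5.68 in hypoxia, and 5.89, 5.91, 6.13 and 5.76 in normoxia. The arrays with SU5416 were above background on 2 of 3, those of hypoxia on 1 of 4 and those of normoxia on 4 of 4. Its difference between hypoxia with SU5416 and hypoxia was -0.40 (SE 0.48, 95% interval -1.48 to 0.68, limma adjusted p = 0.896), an interval that holds the 0.46 of the other Selp probe set. Without the array at 3.74 the difference was 0.38.

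Icam1, the main endothelial ligand of beta 2 integrins, was among the most even of the members. Its signals were 12.47, 12.54 and 12.54 in hypoxia with SU5416, 12.66, 12.54, 12.48 and 12.65 in hypoxia, and 12.62, 12.69, 12.35 and 12.52 in normoxia. All groups overlapped. Hypoxia with SU5416 minus hypoxia was -0.07 (SE 0.11, limma adjusted p = 0.924), with an interval, written as a ratio, of 0.809 to 1.13. Against normoxia the value was -0.03 with a ratio interval of 0.830 to 1.16 (adjusted p = 0.939), and hypoxia against normoxia gave 0.04 with 0.880 to 1.2 (adjusted p = 0.923). These were the narrowest intervals among the members.

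Icam2, a constitutive endothelial ligand of the same integrins, had 2 probe sets. Probe set 1389235_at gave 12.39, 12.38 and 12.40 in hypoxia with SU5416, 12.50, 12.48, 12.41 and 12.60 in hypoxia, and 12.70, 12.78, 12.43 and 12.47 in normoxia. The arrays with SU5416 lay below all others, with the nearest hypoxia array at 12.41. The difference was -0.11 against hypoxia (SE 0.11, 95% interval -0.36 to 0.14, limma adjusted p = 0.877) and -0.20 against normoxia (SE 0.11, 95% interval -0.45 to 0.04, adjusted p = 0.487). The 2 highest normoxia values came from the arrays with the wide beta-actin gap, and without them hypoxia with SU5416 minus normoxia was -0.06 (adjusted p = 0.819) and hypoxia minus normoxia 0.05 in place of -0.10. The other Icam2 probe set, 1390310_at, ranged from 8.51 to 9.30 with SU5416, 8.33 to 9.12 in hypoxia and 8.5 to 9.05 in normoxia. Its residual SD of 0.35 was larger than that of 88.1% of probe sets of like signal, and its differences were 0.18, 0.03 and -0.15 for hypoxia with SU5416 against hypoxia, hypoxia with SU5416 against normoxia and hypoxia against normoxia, with limma adjusted p between 0.850 and 0.973.

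Vcam1, which binds the alpha 4 integrins of lymphocytes and monocytes, had signals of 11.31, 11.35 and 11.43 in hypoxia with SU5416, 11.14, 11.32, 10.83 and 10.71 in hypoxia, and 11.38, 11.22, 11.53 and 10.99 in normoxia. One hypoxia array, at 11.32, reached into the range of the arrays with SU5416. The means were 11.36 ± 0.06 (SD, n = 3) with SU5416, 11 ± 0.28 (SD, n = 4) in hypoxia and 11.28 ± 0.23 (SD, n = 4) in normoxia. The normoxia mean lay above 7.88, the median of all probe set means, so the Vcam1 signal was not low in room air. Hypoxia with SU5416 stood 0.36 above hypoxia (SE 0.17, 95% interval -0.02 to 0.75, limma adjusted p = 0.698). The value against normoxia was 0.08 (ratio interval 0.812 to 1.38, adjusted p = 0.882) and hypoxia minus normoxia was -0.28 (ratio interval 0.644 to 1.05, adjusted p = 0.550). Vcam1 and the 1391946_at probe set of Selp shared the order seen for Sele, with hypoxia lowest.

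Pecam1, the junction protein used to mark endothelium, ran the other way. Its signals were 11.16, 11.26 and 11.27 in hypoxia with SU5416, 11.60, 11.67, 11.54 and 11.37 in hypoxia, and 11.49, 11.49, 11.12 and 11.01 in normoxia. The arrays with SU5416 lay below all 4 of hypoxia, and normoxia was split, with arrays 1 and 2 at 11.49 each. Hypoxia with SU5416 minus hypoxia was -0.32 (SE 0.14, 95% interval -0.63 to 0.0, limma adjusted p = 0.674). Hypoxia minus normoxia was 0.27 (SE 0.13, 95% interval -0.03 to 0.56, adjusted p = 0.494). Without normoxia arrays 1 and 2 it was 0.48, with an adjusted p of 0.108, and hypoxia with SU5416 minus normoxia was 0.16 in place of -0.05.

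Itgb2, the leukocyte partner of the ICAMs, had signals of 10.99, 10.55 and 10.90 in hypoxia with SU5416, 10.43, 10.77, 10.80 and 10.89 in hypoxia, and 10.67, 10.57, 10.78 and 10.97 in normoxia. The 3 ranges lay on top of each other. Hypoxia with SU5416 minus hypoxia was 0.09 (SE 0.16, limma adjusted p = 0.930) with a ratio interval of 0.835 to 1.36. The value against normoxia was 0.07 (ratio interval 0.821 to 1.34, adjusted p = 0.900), and hypoxia minus normoxia was -0.02 (ratio interval 0.785 to 1.23, adjusted p = 0.968). Of the alpha chains that pair with it, named here after their values were seen, Itgal averaged 10.84 ± 0.21 with SU5416, 10.75 ± 0.17 in hypoxia and 10.90 ± 0.10 in normoxia, and Itgax averaged 8.75 ± 0.53, 8.10 ± 0.34 and 8.42 ± 0.30 in those groups (SD, n = 3, 4 and 4). Itgad, near background, averaged 5.97 ± 0.63, 5.56 ± 0.31 and 6.30 ± 0.41 in those groups. It was above background on 2 of 3, 1 of 4 and 4 of 4 arrays. Its difference was -0.74 in hypoxia against normoxia (limma adjusted p = 0.404) and 0.42 in hypoxia with SU5416 against hypoxia (adjusted p = 0.836). Itgam lay below background on every array.

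**Figure D2:**
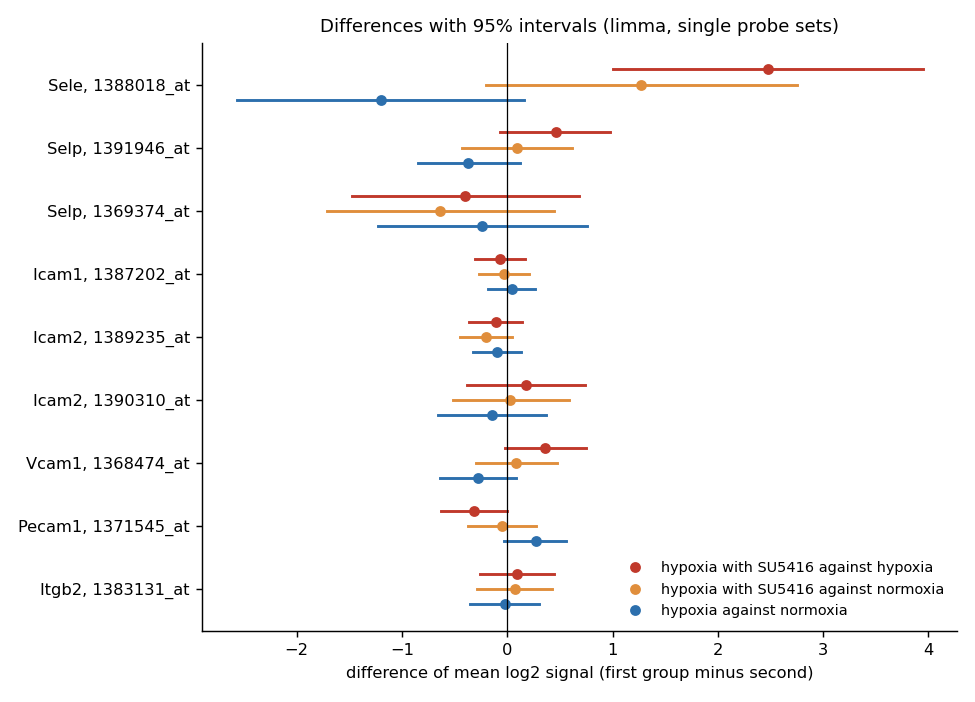
Difference of mean log2 signal (horizontal axis, first group minus second) for each of the 9 probe sets in the 3 comparisons, with 95% intervals from limma. The interval of Sele in hypoxia with SU5416 against hypoxia, 1.0 to 3.95, lies wholly above 0, and Icam1 has the narrowest intervals.

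Across the family, 4 of the 9 probe sets had arrays with SU5416 that did not overlap those of hypoxia, Sele and Selp 1391946_at above them and Icam2 1389235_at and Pecam1 below. Of all probe sets 11.5% did not overlap, 6.27% above and 5.25% below. Against normoxia 2 of 9 did not overlap, Sele above and Icam2 1389235_at below, beside 11.9% of all, 4.94% above and 6.97% below. Hypoxia and normoxia overlapped for all 9, beside 6.13% of all probe sets that did not. The order hypoxia with SU5416, normoxia, hypoxia from high to low held for 5 of 9 probe sets (Sele, Selp 1391946_at, Icam2 1390310_at, Vcam1 and Itgb2) and for 15.6% of all probe sets. In none of these 5 did the 95% interval between neighbours in that order leave out 0, so the order is a description only. Without normoxia arrays 1 and 2, hypoxia with SU5416 minus normoxia was -0.10 for Selp 1391946_at, which turns its order. The same difference was also negative in that setting for Icam2 1390310_at and Itgb2, which turns their order too. The comparisons share arrays: the hypoxia with SU5416 arrays enter 2 of the 3, as do the arrays of each other group.

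**Figure D3:**
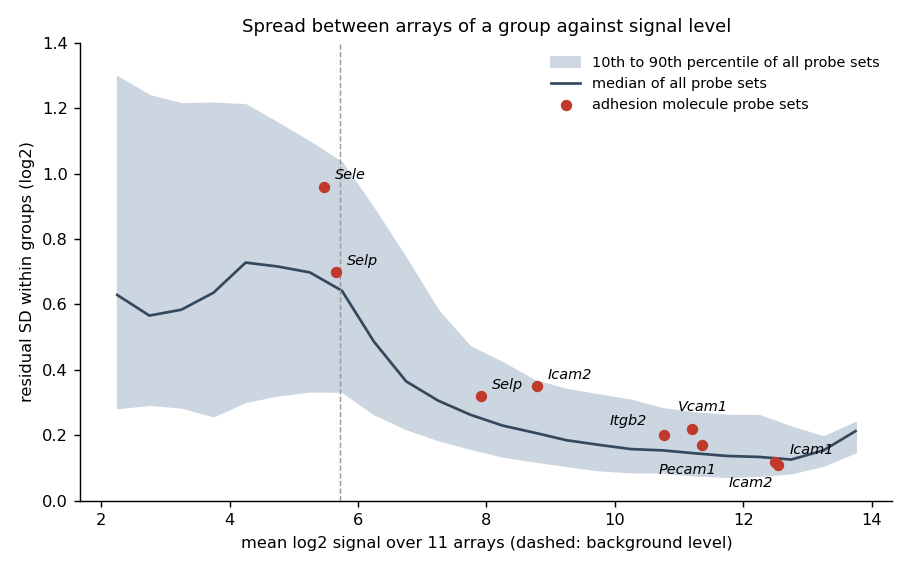
Residual SD within groups (vertical axis, log2) against mean log2 signal over 11 arrays (horizontal axis) for the 9 adhesion probe sets (points), the median of all probe sets (line) and their 10th to 90th percentile (band). Sele and Selp 1369374_at lie left of or at the background level, where spread is widest, and the other 7 lie where it is under 0.4.

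The other genes of leukocyte adhesion were read from lists of selectin ligands, integrins, integrin activation, immunoglobulin and mucin molecules, junctions and chemokines. Of 83 listed genes 72 were measured, 70 with a mean above background, and 0 were called in any comparison. At an unadjusted p below 0.05, limma gave 5 in hypoxia with SU5416 against hypoxia (4 higher and 1 lower), 9 in hypoxia with SU5416 against normoxia (4 higher and 5 lower) and 13 in hypoxia against normoxia (4 higher and 9 lower), beside the shares of all probe sets given above. The list medians were 0.02, -0.02 and -0.06, near those of all probe sets.

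Chemokines and their receptors, which switch on integrins of rolling cells, had the widest list median for hypoxia with SU5416 against hypoxia, 0.27 over 11 measured genes, of which 9 were higher and 2 lower, none called. Cxcl12, a chemokine of lymphocytes and progenitor cells, averaged 11.71 ± 0.15 in hypoxia with SU5416 and 11.10 ± 0.13 in normoxia (SD, n = 3 and 4), a difference of 0.62 with a limma adjusted p of 0.1. It was called when probe sets below the median signal of all were left out (adjusted p = 0.0267) and with moderation by signal level (adjusted p = 0.0253). Ccl2, the monocyte chemokine, named after its values were seen, averaged 8.42 ± 0.47 with SU5416 and 6.57 ± 0.71 in hypoxia (SD, n = 3 and 4), with no overlap and an adjusted p of 0.624. Cx3cr1 and Ccl5 each gave -0.48 in hypoxia against normoxia, with adjusted p of 0.429 and 0.461.

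Ceacam1, an immunoglobulin-family molecule of endothelium and leukocytes, averaged 10.21 ± 0.13 in hypoxia with SU5416 and 10.73 ± 0.05 in normoxia (SD, n = 3 and 4), a difference of -0.51 with a limma adjusted p of 0.136 that was 0.0440 when probe sets below the median signal were left out. In hypoxia against normoxia Ceacam1 gave -0.46 (limma adjusted p = 0.253), and hypoxia with SU5416 minus hypoxia was -0.05. Emcn, a mucin of capillary and venous endothelium, gave 0.24 in hypoxia against normoxia (adjusted p = 0.468). Sirpa, a receptor of myeloid cells, gave 0.32 in hypoxia with SU5416 against normoxia (adjusted p = 0.490).

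Among selectin ligands, Spn, the leukocyte sialomucin CD43, averaged 9.85 ± 0.42 with SU5416 and 10.65 ± 0.07 in normoxia (SD, n = 3 and 4), a difference of -0.80 (limma adjusted p = 0.216). St3gal6, a sialyltransferase that builds selectin-binding sugars, gave -0.53 in the same comparison (adjusted p = 0.207), with arrays that did not overlap in either case. Hypoxia against normoxia gave -0.64 for Spn and -0.43 for St3gal6, also without overlap. Hypoxia with SU5416 minus hypoxia was -0.16 for Spn and -0.11 for St3gal6. B4galt1, a galactosyltransferase, gave -0.32 in hypoxia against normoxia (adjusted p = 0.348). Genes for selectin ligands had a median of 0.01 over 12 measured genes in hypoxia with SU5416 against hypoxia.

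Integrin subunits had a median of 0.09 over 13 genes in that comparison. Itga9 gave 0.55 in hypoxia with SU5416 against normoxia (limma adjusted p = 0.287), Itga6 gave 0.62 in hypoxia against normoxia (adjusted p = 0.290) and Itgb7, of lymphocyte integrins, gave -0.36 there (adjusted p = 0.357). The integrin activation list had 13 measured genes, among them Dok2, an adaptor that restrains signalling. Of the 13 genes, 10 were lower and 3 higher in hypoxia with SU5416 against normoxia, with a median of -0.17 and none called. In hypoxia against normoxia 11 were lower and 2 higher, with a median of -0.14. The median for hypoxia with SU5416 against hypoxia was -0.01. With SU5416 against normoxia, Rassf5, which links Rap1 to integrins, gave -0.49 (limma adjusted p = 0.286). Syk gave -0.26 (adjusted p = 0.365) and Rapgef3 -0.34 (adjusted p = 0.481) there. Junction genes had a median of -0.06 over 13 genes in hypoxia with SU5416 against hypoxia. With SU5416 against normoxia, Jam3 gave 1.36 (SE 0.56, limma adjusted p = 0.365) and Jam2 -0.34 (adjusted p = 0.448). Nectin2 gave 0.44 in hypoxia against normoxia (adjusted p = 0.361), where Jam3 gave 1.18 and Jam2 -0.27. Hypoxia with SU5416 minus hypoxia was 0.18 for Jam3, -0.07 for Jam2 and -0.23 for Nectin2.

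**Figure D4:**
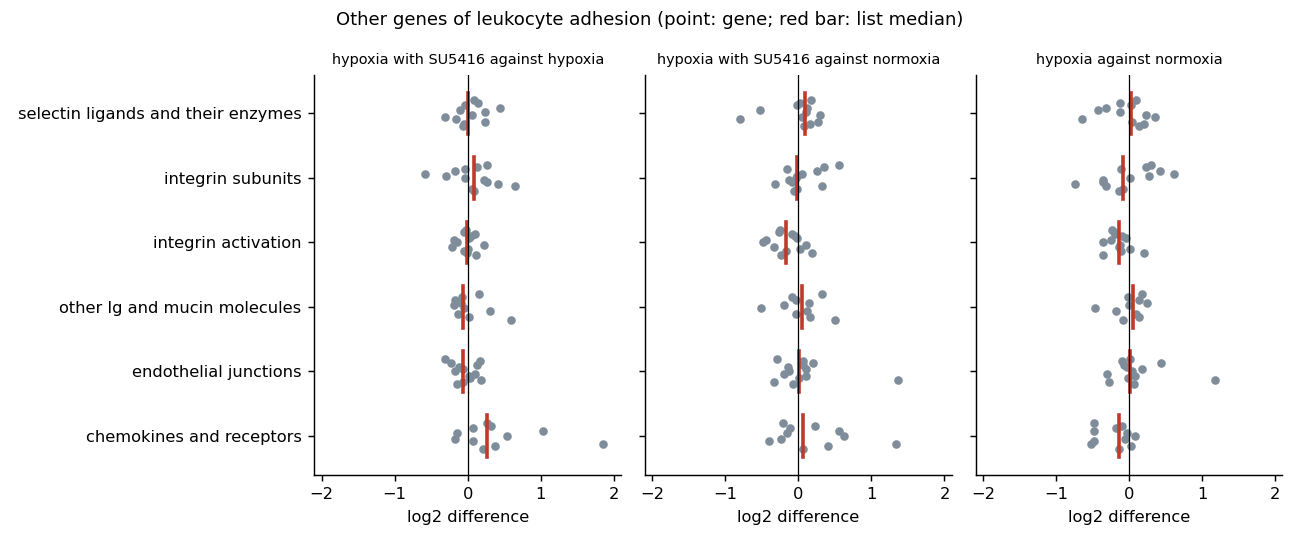
Log2 difference (horizontal axes) of each measured gene in the 6 adhesion lists, 1 panel for each comparison, with a bar at the list median. The points scatter around 0, and the chemokine list in hypoxia with SU5416 against hypoxia has its median at 0.27.

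Cytokine and NF-kB genes, the pathway that induces endothelial adhesion molecules, were measured for all 17 names, and 0 were called in any comparison. The list also holds Nfkbia and Tnfaip3, which restrain NF-kB, so its medians do not measure induction. The medians of these genes were 0.0 for hypoxia with SU5416 against hypoxia, -0.05 for hypoxia with SU5416 against normoxia and -0.08 for hypoxia against normoxia. At an unadjusted p below 0.05 limma gave 3 of them (2 higher and 1 lower), 5 (2 higher and 3 lower) and 5 (2 higher and 3 lower) in that order, where all probe sets had shares of 7.47%, 12.4% and 11%. Irf1, a transcription factor of the Vcam1 response, gave -0.53 in hypoxia with SU5416 against normoxia (adjusted p = 0.268), Birc3, a target of NF-kB, gave -0.47 in hypoxia against normoxia (adjusted p = 0.278), and Il1r1, the interleukin 1 receptor, gave 0.35 in hypoxia with SU5416 against normoxia (adjusted p = 0.331). Irf1 was also lower in hypoxia against normoxia, at -0.44 (limma adjusted p = 0.374). Of 11 genes linked to flow, VEGF or angiopoietin signalling in endothelium, the ligands Vegfa and Angpt1 among them, 0 were called. An unadjusted p below 0.05 in limma was found for 2 (1 higher and 1 lower), 5 (1 higher and 4 lower) and 2 (0 higher and 2 lower) in that order, beside the same shares of all probe sets. Nos3, endothelial nitric oxide synthase, averaged 8.14 ± 0.11 in hypoxia with SU5416 and 7.49 ± 0.07 in normoxia (SD, n = 3 and 4, limma adjusted p = 0.1), and Kdr, the VEGF receptor that SU5416 inhibits, averaged 12.09 ± 0.19 and 12.58 ± 0.07 in those groups (adjusted p = 0.136). Vegfa, the ligand, gave -0.52 in the same comparison (limma adjusted p = 0.273). Hypoxia against normoxia gave 0.24 for Nos3, -0.24 for Kdr and -0.16 for Vegfa. Hypoxia with SU5416 minus hypoxia was 0.41 for Nos3, -0.25 for Kdr and -0.36 for Vegfa.

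In bulk lung, fewer cells of a type and less RNA per cell cannot be told apart. The mean signal of 14 of 16 endothelial markers was 11.57 to 11.71 over the arrays with SU5416. It was 11.64 to 11.77 over hypoxia and 11.71 to 11.77 over normoxia. The highest array with SU5416 and the lowest of normoxia were thus both at 11.71. These genes did not move together: with SU5416 against normoxia 6 of the 14 were higher and 8 lower. Hypoxia against normoxia also had 6 higher and 8 lower. With SU5416 against hypoxia 4 were higher and 10 lower, and none was called in any comparison. Of these markers Eng, a co-receptor of TGF-beta, gave -0.42 in hypoxia with SU5416 against normoxia (limma adjusted p = 0.199) and Vwf, the von Willebrand factor gene, -0.42 in hypoxia against normoxia (adjusted p = 0.357; -0.19 without normoxia arrays 1 and 2). The neutrophil list, 8 of 10 genes, was 7.72 to 8.18 with SU5416, 7.37 to 7.59 in hypoxia and 7.37 to 8.07 in normoxia. Its arrays with SU5416 lay above those of hypoxia, but its genes did not move together: 5 of the 8 were higher and 3 lower with SU5416 than in hypoxia, and 5 of the 8 had a mean above background. Lcn2, which epithelium also makes, gave 1.23 there, S100a8 -0.02 and S100a9 -0.09. Cxcr2, Camp, Mmp9, Mmp8 and Csf3r, named after their values were seen, gave 1.03, 0.91, 0.55, 0.28 and -0.14. The arrays of Lcn2, Cxcr2 and Mmp8 did not overlap. Cxcr2 was below background on every hypoxia array, and Camp on every array of both groups. Against normoxia Lcn2 gave 2.11 (limma adjusted p = 0.207; 1.2 without normoxia arrays 1 and 2), S100a8 -0.45 (adjusted p = 0.393) and S100a9 -0.43 (adjusted p = 0.470). The macrophage and monocyte list, 10 of 12 genes, was 9.84 to 10.32 with SU5416, 9.61 to 9.76 in hypoxia and 9.10 to 9.76 in normoxia, with 8 genes higher and 2 lower against normoxia, none called. C1qa and C1qc, of complement, gave 1.37 and 1.62 there with limma adjusted p of 0.0555 each. Adgre1, which encodes the macrophage marker F4/80, went the opposite way at -0.87 (adjusted p = 0.105), and it was called at -1.14 without normoxia arrays 1 and 2 (adjusted p = 0.0316).

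The list of markers that all leukocytes share, 8 of 8 genes, overlapped between groups at 10.99 to 11.24 with SU5416, 10.89 to 11.14 in hypoxia and 10.69 to 11.38 in normoxia, as Itgb2 did. Platelet markers, 5 of 8 genes, were 7.58 to 7.85 with SU5416, 7.55 to 7.82 in hypoxia and 7.42 to 8.08 in normoxia. T and NK cell markers, 12 of 12 genes, were 8.14 to 8.44, 8.16 to 8.39 and 8.31 to 8.91 in those groups, and B cell markers, 5 of 8 genes, were 7.67 to 8.01, 7.76 to 8.24 and 8.37 to 8.62. Smooth muscle markers, 8 of 8 genes, were 11.21 to 11.43 with SU5416, 10.54 to 11.13 in hypoxia and 10.57 to 10.90 in normoxia. Airway epithelial markers, 5 of 6 genes, were 11.30 to 11.43 with SU5416, 11.59 to 11.73 in hypoxia and 10.99 to 11.92 in normoxia, and erythroid markers, 5 of 8 genes, were 8.22 to 8.63, 7.80 to 8.72 and 7.24 to 8.29. Mast cell markers, 7 of 8 genes, were 7.45 to 7.82 with SU5416, 7.72 to 8.22 in hypoxia and 7.09 to 8.44 in normoxia, and cardiac muscle markers, 7 of 8 genes, were 7.36 to 9.09, 7.04 to 8.6 and 6.70 to 10.70. No marker in these lists was below background on every array. The part of these lists in the values of Sele, Selp, Vcam1 and Pecam1 was not tested.

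**Figure D5:**
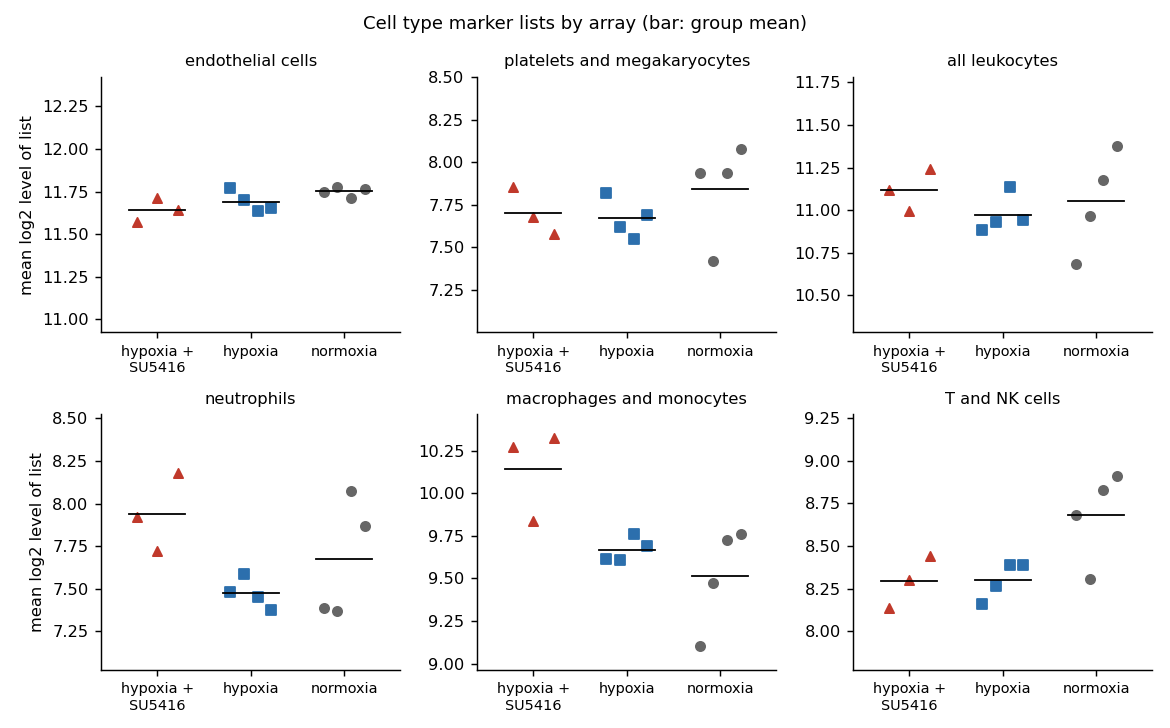
Mean log2 level over each marker list (vertical axes, scaled separately) on each array of hypoxia with SU5416 (triangles), hypoxia (squares) and normoxia (circles), with a bar at the group mean. In the neutrophil and macrophage panels the arrays with SU5416 lie above all 4 hypoxia arrays.

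The genes whose 11 signals followed those of a member most closely, after each was centred on its own mean, were taken from 17835 probe sets by the root mean square difference. For Sele, whose signals lay 1.28 about their mean, Fndc3b was closest at 0.63, followed by Mdm2 at 0.69 and Tmed7 at 0.80. Fndc3b averaged 7.34 in hypoxia with SU5416, 6.03 in hypoxia and 6.41 in normoxia. The genes closest to Selp 1391946_at were Trmt10a at 0.17, Chrnb1 at 0.18 and Cacna1c at 0.19, where Selp itself lay 0.34 about its mean. Dcun1d4 and Abcc9, both at 0.13, and C10h17orf67, at 0.14, were closest to Vcam1, which lay 0.25 about its mean. These genes were picked for likeness over the same arrays, and no test applies to them.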

How the data were processed

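Total RNA from rat lung was labelled and hybridised to Affymetrix arrays, per the labels' protocols. The deposited values are log2 signals for 31099 probe sets on 11 arrays, made with RMA per the submitters' processing notes. The version is not given in the sources used here. The trimmed mean of the linear values is 500 on each array and the distributions differ in shape, so how the values were summarised is uncertain, while their log2 scale is not. The 57 array control probe sets were left out, which leaves 31042. One symbol was named by 20826 of these, several by 436 and none by 9780; only exact single names were used.

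Groups were compared with limma 3.58.1 (lmFit and eBayes; R 4.3.3) with 1 mean for each group over 11 arrays and 8 residual degrees of freedom, and p-values were adjusted by Benjamini-Hochberg over all 31042 probe sets. Tables were made with Python 3.11.15. The fit was tested on simulated data. The labels do not say that arrays with the same replicate number belong together. Residual correlations of the 10 same-numbered pairs lay between -0.12 and 0.13, and 1 exceeded 0.1. Those of the 30 differently numbered pairs lay between -0.13 and 0.14, and 3 exceeded 0.1. Such values cannot settle whether arrays were paired. No scan date or batch was given. Genes named are all members; for each adhesion, inducer and flow list, and for the endothelial, neutrophil and macrophage markers, the genes called or else the 3 with the smallest adjusted p; and the 3 most alike for the members with the widest span of means. The rule also covers the other marker lists, of which only levels are given. Genes marked as named after their values were seen fall outside it. The members and lists were chosen with earlier results of these data known. Alternatives covered normalization, filters, moderation, array weights, replicate blocks and left-out arrays.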

Additional observations from a re-analysis of the deposited data

How the results depend on the processing

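No member probe set was called under any of 22 alternatives: over 194 refits of each comparison, the adjusted p in limma ran from 0.173 to 0.999 for hypoxia with SU5416 against hypoxia, 0.298 to 0.999 for hypoxia with SU5416 against normoxia and 0.108 to 0.987 for hypoxia against normoxia. Sele in hypoxia with SU5416 against hypoxia ranged from 2.19 to 2.89 with 1 array left out and from 2.40 to 2.78 otherwise. With the replicate number as a block the member count stayed at 0 in each comparison and Sele was 2.78 (adjusted p = 0.480). The block changed no member call. Probe sets called over the whole array moved between 6 and 24 (8 as reported), 6 and 214 (19 as reported) and 0 and 99 (2 as reported) in the same order of comparisons. Pathway genes called in hypoxia with SU5416 against normoxia were 2 with probe sets below the median of all left out and 1 with trend and robust moderation, against 0 as reported. Sele and Selp 1369374_at have no value once probe sets below background are left out.

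Signs turned in 3, 27 and 5 refits in that order of comparisons, and the cause was not tested. Some of the refits could not turn a sign. The looser threshold reuses the reported fit, and leaving out arrays of the third group keeps the difference between the groups compared. In hypoxia with SU5416 against normoxia, without normoxia arrays 1 and 2 the values were -0.10 for Selp 1391946_at, 0.08 for Icam1, -0.14 for Icam2 1390310_at, 0.16 for Pecam1 and -0.06 for Itgb2; with the beta-actin gap as a covariate they were -0.10, 0.04, -0.15, 0.10 and -0.0. Both settings were chosen after seeing the data. Median centring gave Icam1 0.02 and Pecam1 0.0, array weights gave Icam1 0.01, Icam2 1390310_at -0.03 and Pecam1 0.02, and the replicate block gave Icam2 1390310_at -0.01 and Vcam1 -0.01. In hypoxia against normoxia, Icam2 1389235_at was 0.05 without normoxia arrays 1 and 2, and Itgb2 was 0.06 with median centring. With 1 array left out, hypoxia with SU5416 against hypoxia ran from -0.92 to 0.38 for Selp 1369374_at, -0.04 to 0.36 for Icam2 1390310_at and -0.01 to 0.22 for Itgb2. Hypoxia with SU5416 against normoxia ran from -0.05 to 0.29 for Selp 1391946_at, -1.16 to 0.14 for Selp 1369374_at, -0.09 to 0.02 for Icam1, -0.19 to 0.21 for Icam2 1390310_at, -0.01 to 0.17 for Vcam1, -0.14 to 0.02 for Pecam1 and -0.02 to 0.20 for Itgb2. Hypoxia against normoxia ran from -0.03 to 0.09 for Icam1 and -0.08 to 0.07 for Itgb2. Of 62 differences of list genes, all chosen by the naming rule, 0 turned sign without normoxia arrays 1 and 2, 20 shrank and 7 grew by over 1.5 times, and 1 was called (Adgre1). Among those that shrank were Rapgef3 at -0.15, Sirpa at 0.13, Nectin2 at 0.20, Jam2 at -0.15, Il1r1 at 0.23 and Vegfa at -0.31, while Cxcl12 was 0.63, Ceacam1 -0.51, Spn -0.78, Nos3 0.63, Kdr -0.44 and C1qa 1.13. Signal near background limits what can be said of Sele and Selp 1369374_at.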
